A study of Mus musculus with 6 samples.

Results

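The genes described here are 42 regulators of splicing: SR proteins and the related Tra2 proteins, heterogeneous nuclear ribonucleoproteins (hnRNPs), tissue-biased regulators such as Mbnl1 and Celf2, several Rbm proteins, and the Clk kinases with the nuclear speckle proteins Son, Srrm1 and Srrm2. They were taken by name from the 16117 genes with a probe set of a single gene symbol. Of the 42, 41 had a gene value and Hnrnpa1 had 1 probe set only. Liver RNA of male animals aged 6 to 8 weeks was measured on exon arrays, with 3 samples labelled wild type as controls and 3 labelled Dhx32-/-, that is homozygous for a mutation of Dhx32, a member of the DEAH-box RNA helicase family. The mutation, the genetic background and whether each sample was a separate animal are not given in the sources used here, so the p-values measure the spread between these samples. The study looked for transcripts that are spliced differently when Dhx32 is mutated, and the question here is whether the regulators of splicing themselves differed.

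SR proteins bind exons and recruit the spliceosome through domains rich in arginine and serine, whereas many hnRNPs repress exons or coat the nascent RNA. The Clk kinases phosphorylate SR proteins and so control their activity and their place in nuclear speckles. Mbnl, Celf, Esrp and Ptbp proteins set tissue-specific splicing, and Esrp2 is known for driving adult splicing patterns in hepatocytes. Many SR proteins and hnRNPs control their own RNA through exons that send it to nonsense-mediated decay.

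The mutated gene followed the labels. The mean log2 signal of Dhx32 was 8.28, 8.85 and 8.62 in the controls and 6.35, 6.60 and 7.04 in the mutants. That was a 3.78-fold lower mean, with all 16 probe sets lower. The differences were uneven, from -5.26 in probe set 4537138 to -0.26 in probe set 4882961, so the gene mean averages unlike probe sets. This gene mean did not pass over all genes (adjusted p = 0.183 in limma) unless the arrays were rescaled or weighted, with an adjusted p = 0.0411 after quantile normalization. Array medians ran from 6.73 in mutant 1 to 6.95 in mutant 3. The array of mutant 1 stood apart, with correlations of 0.935 to 0.940 with the other arrays, where those among the rest reached 0.973. Of 8 hepatocyte markers 5 were measured, among them albumin and Hnf4a, and their summed log2 signal was 65.4 to 66.0 in the controls and 65.3 to 66.4 in the mutants. Since whole liver was measured, fewer cells of a type and less RNA per cell cannot be told apart.

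The start sites of these genes were mostly rich in the dinucleotide CG. RefSeq's promoter table (build GRCm38.p6) held 59 windows of 300 bases for 40 of the genes, all but Clk1 and Esrp2. The median window had 28 CG dinucleotides. Over the 21263 windows of 17492 protein-coding genes the median was 13. At least 10 were found in 52 of the 59 windows, or 88.1%, against 56.8% of all windows. The bases before the start sites of Mbnl1 and Rbm10, the genes of smallest p in each direction of the comparison, are shown with each CG in capitals. Mbnl1, on the plus strand at chr3:60472580-60472829 and chr3:60500929-60501178, has a start site with 1 CG in 250 bases and another with 33. The 250 bases of Rbm10, at chrX:20617253-20617502 on the plus strand, have 20. The full windows of 300 bases have 2 and 41 for Mbnl1 and 22 for Rbm10.
Mbnl1 first start: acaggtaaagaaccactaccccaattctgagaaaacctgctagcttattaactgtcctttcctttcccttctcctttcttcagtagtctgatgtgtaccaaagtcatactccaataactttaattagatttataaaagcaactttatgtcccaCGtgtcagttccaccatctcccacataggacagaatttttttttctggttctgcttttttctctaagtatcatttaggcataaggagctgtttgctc
Mbnl1 second start: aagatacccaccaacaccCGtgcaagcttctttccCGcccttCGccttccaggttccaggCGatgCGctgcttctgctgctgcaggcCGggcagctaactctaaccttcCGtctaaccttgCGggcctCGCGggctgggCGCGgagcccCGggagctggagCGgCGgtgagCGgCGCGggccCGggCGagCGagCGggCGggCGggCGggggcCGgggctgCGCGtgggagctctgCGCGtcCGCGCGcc
Rbm10: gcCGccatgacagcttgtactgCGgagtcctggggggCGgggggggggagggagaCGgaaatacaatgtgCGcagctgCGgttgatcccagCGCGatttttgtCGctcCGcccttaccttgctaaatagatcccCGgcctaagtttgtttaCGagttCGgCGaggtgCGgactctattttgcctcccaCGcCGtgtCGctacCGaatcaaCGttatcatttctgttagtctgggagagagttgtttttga

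No member passed the test in either direction. Of 41 members 0 passed an adjusted p of 0.05 in limma, where 1 of 15045 genes did (0.00665%), and 0 of 41 reached an unadjusted p under 0.05 against 4.21% of all genes. The adjusted p-values of the members ran from 0.943 to 0.998. Differences of mutant minus control means lay between -0.37 and 0.37 log2 units, with standard errors of 0.14 to 0.29. The 95% intervals of all 41 lay inside 1 log2 unit on both sides, as did those of 13454 of 15045 genes. A 2-fold difference was thus outside the interval of each member taken singly. For 22 of the 41 the interval also lay inside a 1.5-fold difference, against 7477 of 15045 genes.

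**Figure D1:**
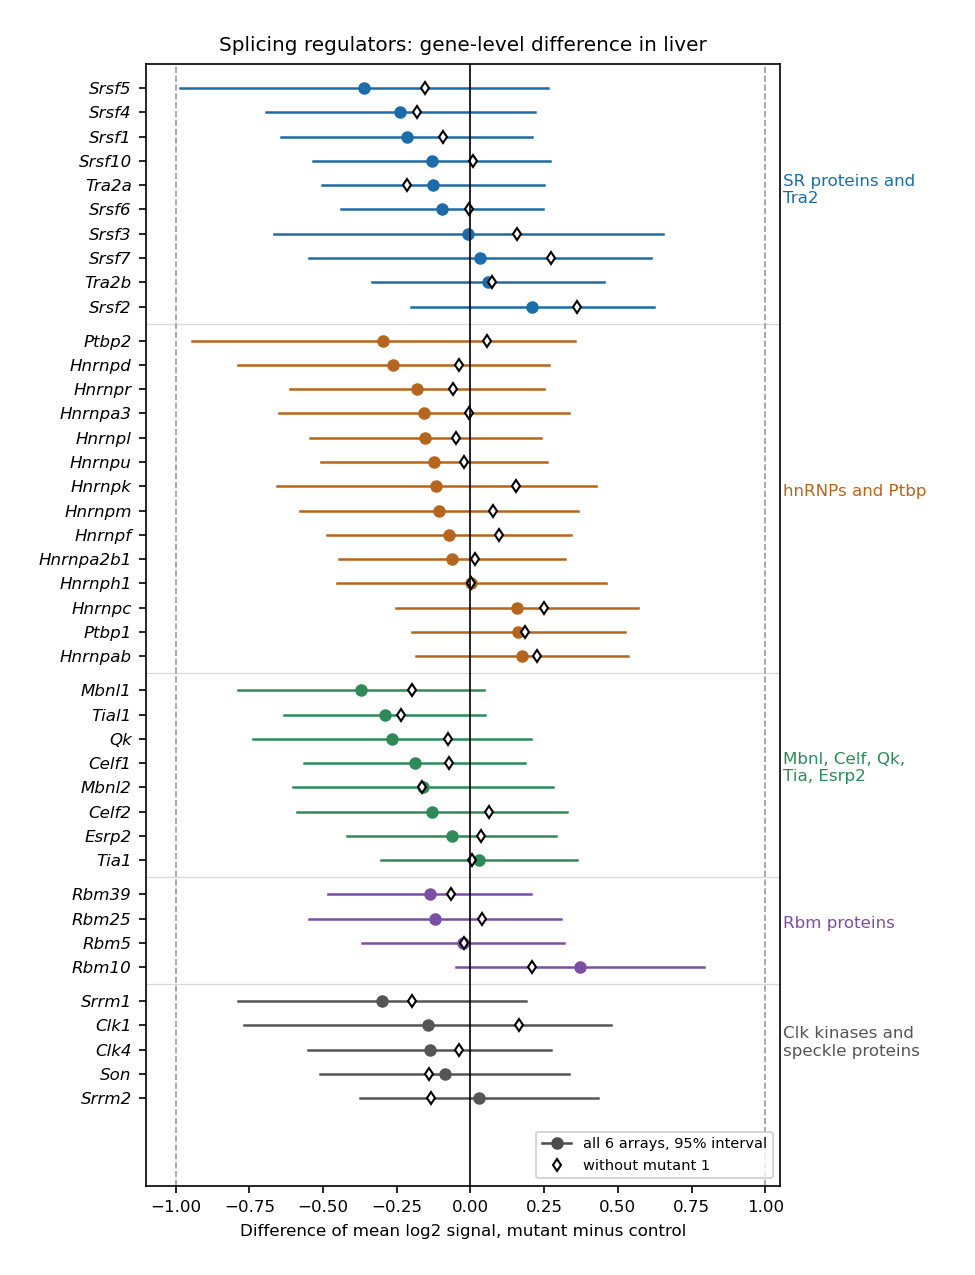
Difference of mean log2 signal, mutant minus control (x axis), for the 41 members with a gene value, ordered by group and by difference; dots and lines give the value and its 95% interval over all 6 arrays, and open diamonds the value without mutant 1. Every interval includes 0 and stays between the dashed lines at a 2-fold difference, and 31 of 41 dots lie left of 0, against 21 of 41 diamonds.

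The members leaned to lower means in the mutants, and less so without the array of mutant 1. Of 41 members 31 had a lower mean in the mutants (75.6%), where 52.5% of all genes did, and their median difference was -0.12, against -0.01 over all genes. Without mutant 1, 21 were lower (51.2%) and 20 higher, and the median was -0.0059, where 45.5% of all genes were lower and their median was 0.02. Averaged over the 41 genes, mutant 1 lay 0.30 below the control mean (-0.30), whereas mutant 2 lay at 0.01, mutant 3 at 0.003 and the 3 control arrays spanned -0.05 to 0.09. Over all genes mutant 1 lay at -0.09, mutant 2 at -0.04 and mutant 3 at 0.08. Mutant 1 was the lowest of the 6 arrays in 27 members (65.9%), against 32.8% of all genes. In 13 members (31.7%) it lay below the other 5 arrays by more than their whole range, which held for 10.5% of all genes.

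Mutant 1 also stood apart in some lists of other transcripts, but not in all. All 8 measured acute phase genes, which hepatocytes secrete in inflammation, had higher means in mutants, and their summed log2 signal was 82.0 to 84.3 in controls and 89.7 to 106 in mutants, with mutant 1 highest. Of 7 measured neutrophil markers 5 were higher, with sums of 32.9 to 35.2 in controls and 34.0 to 40.2 in mutants. Of 6 stellate cell markers 4 were lower, with sums of 49.0 to 50.8 in controls and 44.7 to 49.7 in mutants. Mutant 1 was the highest array in the neutrophil list and the lowest in the stellate list. It was also the highest for 7 Kupffer cell and macrophage markers, with sums of 54.4 to 58.5 in controls and 55.0 to 60.5 in mutants, although only 3 of the 7 had higher means in mutants. Mutant 1 was highest for 5 bile duct markers too, 4 of them higher, with sums of 31.6 to 32.6 in controls and 31.6 to 35.4 in mutants. Among these Spp1 differed by 1.07, with mutant 1 at 10.1, and Krt19, Krt7, Epcam and Sox9 by 0.04, 0.07, -0.0094 and 0.15. Of the measured markers of lymphocytes 2 of 7 were higher, of endothelium 2 of 6 and of handling stress 5 of 8, with sums of 38.4 to 39.0, 52.0 to 55.7 and 55.9 to 58.9 in controls and 37.3 to 39.1, 49.9 to 55.3 and 58.4 to 59.4 in mutants. In the endothelial list mutant 1 lay among the controls, and in the handling stress list mutant 3 was the highest array. No marker of these lists had a mean under a log2 signal of 3, and none passed over all genes in limma. Their part in the members' values was not tested.

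**Figure D2:**
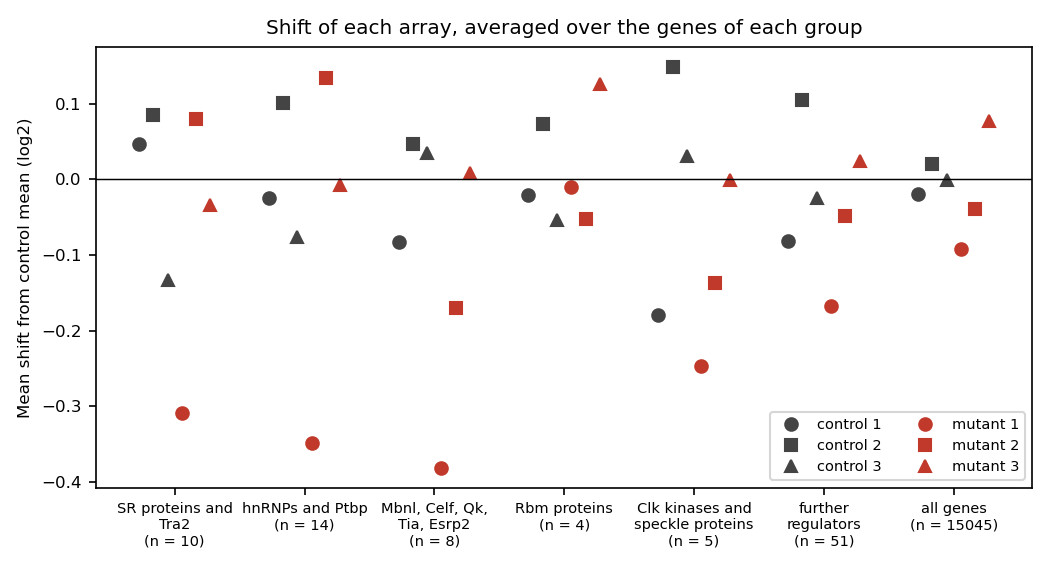
Mean shift of each array from the control mean in log2 units (y axis), averaged over the genes of each group of splicing regulators, over 51 further regulators and over all genes (x axis), with controls in grey and mutants in red. Mutant 1 is the lowest array in the SR, hnRNP and Mbnl-Celf groups, at -0.31, -0.35 and -0.38, as it is in the Clk and speckle group (-0.25), the further regulators (-0.17) and all genes (-0.09), and it stays among the others in the Rbm group, at -0.01.

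Among the SR proteins and Tra2 proteins, 3 of 10 members had higher and 7 lower means in mutants (70% lower, against 52.5% of all genes). The median difference was -0.11, and no gene of the group passed. Without mutant 1, 5 of the 10 were lower. Srsf5 varied most of the 10 over the arrays. It read 10.5, 10.7 and 9.99 in the controls and 9.60, 10.5 and 9.93 in the mutants, so the groups overlapped, and it differed by -0.36 (SE 0.27; 95% interval -0.99 to 0.26). That difference was -0.15 without mutant 1 and -0.61 without mutant 2. Srsf1, the founding member of the family, read 9.11, 9.52 and 9.10 in controls and 8.78, 9.19 and 9.10 in mutants, a difference of -0.22 (SE 0.19) that was -0.09 without mutant 1 and -0.08 without control 2.

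Srsf2, which marks nuclear speckles, was on the other side. It read 10.3, 10.1 and 10.1 in controls and 10.1, 10.4 and 10.6 in mutants, a difference of 0.21 (SE 0.18). Without mutant 1 the difference was 0.36 (SE 0.15), and Srsf2 then was the 1 member of 41 with an unadjusted p under 0.05 (2.44%, against 4.17% of all genes in that fit), though it did not pass after adjustment in limma. Srsf3 held its spread within the groups: control 1 at 9.65 and mutant 2 at 9.51 stood above the other arrays, which lay between 8.72 and 8.99. Its difference was -0.0070 (SE 0.29). Srsf7 likewise had mutant 2 highest at 8.77 and control 1 next at 8.56, with mutant 1 lowest at 7.87, and differed by 0.03 (SE 0.25). The Tra2 proteins activate exons with purine-rich enhancers. Tra2a read 7.69, 7.80 and 7.58 in controls and 7.74, 7.62 and 7.33 in mutants, a difference of -0.13 (SE 0.16). Tra2b read 7.85, 8.16 and 7.64 in controls and 7.91, 7.93 and 7.99 in mutants, a difference of 0.06 (SE 0.17), and its mutants lay within the span of its controls.

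Srsf4 divided the arrays in another way. Control 1 (9.40), mutant 1 (9.38) and mutant 2 (9.35) were low, and controls 2 and 3 (9.83 and 9.96) and mutant 3 (9.75) were high, for a difference of -0.24 (SE 0.20) that was -0.40 without control 1, -0.36 without mutant 3 and -0.12 without control 3. Srrm1, a speckle protein and splicing coactivator, split the same way, with 7.35, 7.22 and 7.34 in the first set of arrays and 7.88, 7.93 and 7.71 in the second. Dbp, a transcription factor of the circadian clock, read 7.29, 6.90 and 6.91 in the first set and 8.93, 8.71 and 8.74 in the second. This likeness was noticed after the values were seen, and the part of the clock in these values was not tested. Of 8 measured clock genes 1 had a higher mean in mutants, with summed log2 signals of 58.4 to 63.7 in controls and 55.8 to 62.4 in mutants.

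The hnRNPs with the polypyrimidine tract proteins had 4 of 14 members higher and 10 lower (71.4%, against 52.5% of all genes). Their median difference was -0.11, and none passed the threshold. Without mutant 1, 5 of the 14 were lower. Mutant 1 was the lowest array in 10 of the 14. Hnrnpk, an RNA- and DNA-binding protein, read 10.5, 10.7 and 10.5 in controls and 9.92, 10.8 and 10.7 in mutants, so that mutant 1 alone lay below the controls. Its difference was -0.12 (SE 0.23) with that array and 0.16 (SE 0.15) without it. Hnrnpd, which also binds AU-rich elements in messenger RNA, read 8.90, 9.33 and 8.90 in controls and 8.34, 9.07 and 8.94 in mutants, a difference of -0.26 (SE 0.23) that was -0.04 without mutant 1.

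On the higher side were Hnrnpab, Ptbp1, Hnrnpc and Hnrnph1, with differences of 0.18, 0.16, 0.16 and 0.003. Hnrnpab read 10.3, 10.1 and 10.02 in controls and 10.2, 10.5 and 10.3 in mutants, and the groups overlapped (SE 0.16), and the difference was 0.09 without mutant 2. Hnrnpu, a scaffold protein of chromatin, had the highest control mean of the 41, at 10.76 against 10.75 for Hnrnpf, which was the brighter of the pair in mutants. Hnrnpu had 10.8, 10.9 and 10.6 in controls and 10.4, 10.8 and 10.6 in mutants, and differed by -0.12 (SE 0.17). Hnrnpa1, an exon repressor, was measured by its 1 probe set of a single gene symbol, which read 9.97, 9.82 and 9.17 in controls and 10.003, 10.5 and 9.44 in mutants. Its difference was 0.32 (SE 0.35), and the groups overlapped.

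The tissue-biased regulators and the Tia proteins had 1 of 8 members higher and 7 lower (87.5%, against 52.5% of all genes), with a median difference of -0.18. Without mutant 1, 5 of the 8 were lower, against 45.5% of all genes. Mbnl1, the muscleblind protein that promotes adult splicing patterns, had the smallest p of all members. It read 10.4, 10.3 and 10.3 in controls and 9.64, 10.2 and 10.2 in mutants. Every mutant lay below every control, with mutant 1 far below the rest. The means were 10.4 ± 0.06 and 9.98 ± 0.30 (SD, n = 3), a difference of -0.37 (SE 0.18; 95% interval -0.79 to 0.04) or 1.29-fold lower, with an adjusted p = 0.943 in limma. Without mutant 1 the difference was -0.20 (SE 0.14).

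Tial1, a binder of U-rich intron sequences, read 8.26, 8.48 and 8.25 in controls and 7.93, 8.06 and 8.12 in mutants. Again no mutant reached the controls, and here mutant 1 was close to the other mutants. The difference was -0.29 (SE 0.15; 95% interval -0.63 to 0.05), and -0.24 (SE 0.16) without mutant 1. Mbnl1 and Tial1 were the only 2 of 41 members (4.88%) whose mutants all lay below all controls, against 4.32% of all genes. The only member with mutants all above controls, 1 of 41, was Rbm10 (2.44%, against 5.15% of all genes). Both shares lay near or below those of all genes.

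Qk, which encodes the RNA-binding protein quaking, read 8.52, 8.76 and 8.86 in controls and 8.07, 8.52 and 8.75 in mutants, a difference of -0.27 (SE 0.21) that was -0.08 without mutant 1. Celf1 had closely matched controls, at 10.13, 10.13 and 10.15, and mutants at 9.71, 9.95 and 10.18, a difference of -0.19 (SE 0.16). That difference was -0.07 without mutant 1 and -0.30 without mutant 3. Without mutant 2 it was -0.09, where the minimum signal of 3 was applied again and probe set 5323830 entered. Over the 6 arrays that probe set was left out, so the -0.09 is not the effect of mutant 2 alone. Mbnl2, the relative of Mbnl1, read 9.50, 9.81 and 10.1 in controls and 9.63, 9.42 and 9.82 in mutants, with full overlap and a difference of -0.16 (SE 0.19). Esrp2, the epithelial splicing regulator of hepatocytes, read 9.52, 9.52 and 9.44 in controls and 9.23, 9.46 and 9.60 in mutants, and differed by -0.06 (SE 0.15; 95% interval -0.42 to 0.29). Celf2 had the dimmest gene value of the 41, at 6.23 to 6.43 in controls and 5.83 to 6.53 in mutants. Signals of different genes come from different probes, so they are not ranked as amounts of RNA.

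**Figure D3:**
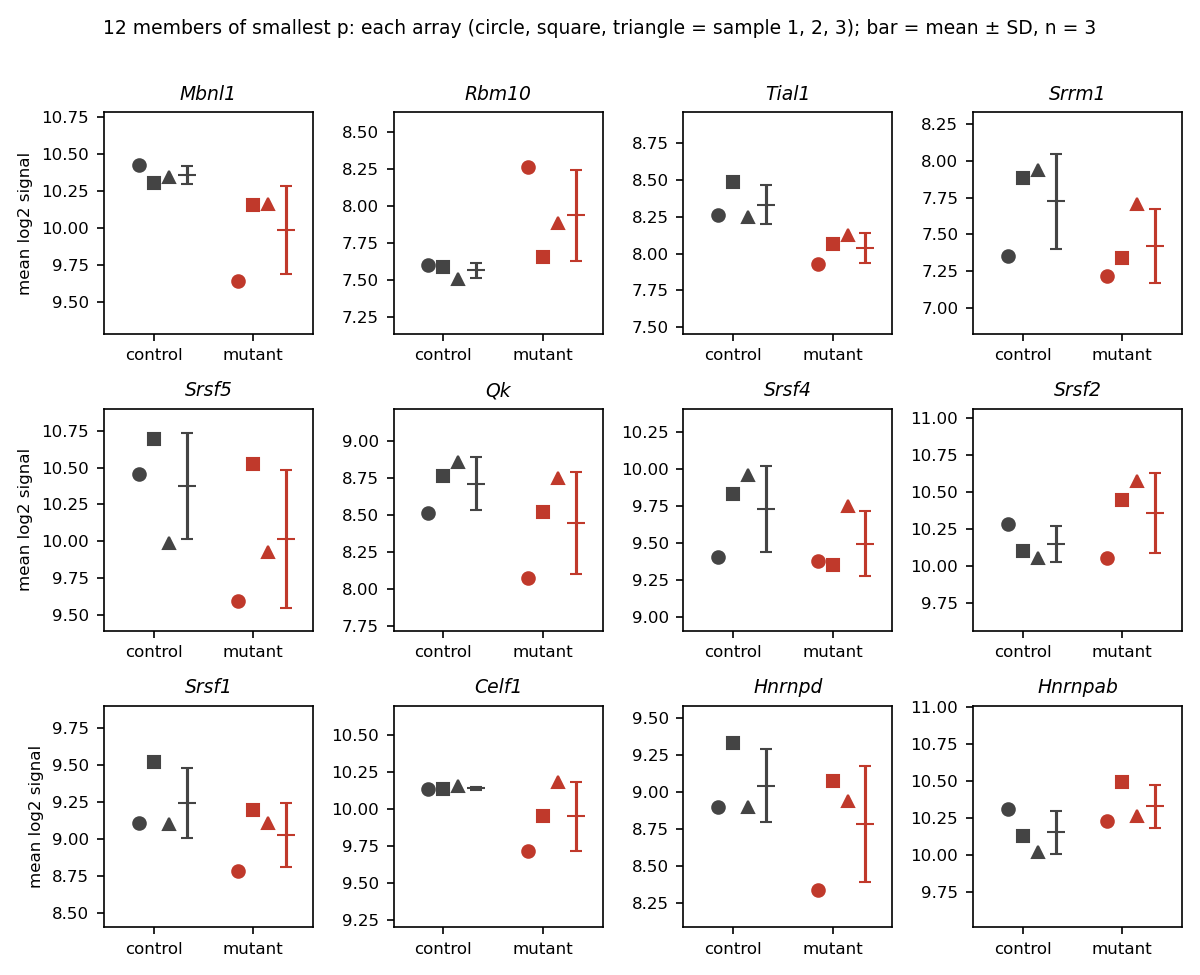
Mean log2 signal (y axis, each panel spanning 1.5 units) of the 12 members of smallest p on each array, with controls in grey, mutants in red and bars for the mean ± SD of 3. Groups do not overlap for Mbnl1, Rbm10 and Tial1; mutant 1 (red circle) is the lowest mutant in all panels except those of Rbm10 and Srsf4.

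With medians in place of means over the probe sets, the differences of Srsf5, Srsf1, Srsf4, Celf1 and Hnrnpab were -0.11, -0.04, -0.49, -0.11 and 0.29. Those of Mbnl1, Rbm10 and Tial1 were -0.48, 0.38 and -0.41. None of these genes passed in limma. With medians 1 of 41 members had an unadjusted p under 0.05 in limma, against 658 of 15045 genes.

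Among the Rbm proteins 1 of 4 members was higher and 3 were lower (75%, against 52.5% of all genes). Without mutant 1, 2 of the 4 were lower. Rbm10, an X-linked regulator that promotes skipping of exons, read 7.60, 7.59 and 7.51 in controls and 8.26, 7.66 and 7.89 in mutants. All mutants lay above all controls, with mutant 2 only just above, and mutant 1 far above. The means were 7.57 ± 0.05 and 7.94 ± 0.31 (SD, n = 3), a difference of 0.37 (SE 0.18; 95% interval -0.05 to 0.79; adjusted p = 0.943 in limma), and 0.21 (SE 0.15) without mutant 1. Its relative Rbm5 read 8.07 to 8.30 in controls and 8.05 to 8.28 in mutants, a difference of -0.03 (SE 0.15). Rbm39 and Rbm25 differed by -0.14 (SE 0.15) and -0.12 (SE 0.19).

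The Clk kinases and speckle proteins had 1 of 5 members higher and 4 lower (80%, against 52.5% of all genes). Without mutant 1, 4 of the 5 were lower as well. Clk1 read 9.90, 10.1 and 9.75 in controls and 9.15, 10.2 and 9.94 in mutants. Its highest and its lowest array were both mutants, and it differed by -0.15 (SE 0.27) with mutant 1 and by 0.17 (SE 0.18) without it. Clk4 read 9.12, 9.54 and 9.30 in controls and 8.98, 9.16 and 9.40 in mutants, a difference of -0.14 (SE 0.18). Srrm1 differed by -0.30 (SE 0.21), by -0.20 without mutant 1 and by -0.49 without control 1. Son, a speckle scaffold, and Srrm2 differed by -0.09 (SE 0.18) and 0.03 (SE 0.18), and Srrm2 had mutant 1 as its highest array, at 9.60 against 9.07 to 9.28 on the others.

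Pairs of related regulators were compared within each array, since related proteins often replace each other. The log2 ratio of Tia1 to Tial1 was -1.38, -1.38 and -1.36 in controls and -0.90, -1.15 and -1.11 in mutants. The mutants all lay above the controls, by 0.32 on average and by 0.24 without mutant 1. The exact two-sided permutation p = 0.1 is the smallest that 3 against 3 allows, and over the 6 pairs compared the adjusted p = 0.6. The ratio of Ptbp1 to Ptbp2, whose balance shifts during neuronal differentiation, was 1.71, 1.77 and 1.93 in controls and 2.92, 1.86 and 2.01 in mutants, a difference of 0.46 (exact permutation p = 0.2) that was 0.13 without mutant 1. For Clk1 to Clk4, Mbnl1 to Mbnl2, Celf1 to Celf2 and Tra2a to Tra2b the ratio differed by -0.0066, -0.21, -0.06 and -0.19, with exact permutation p-values of 0.4 to 1.

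The exon arrays measured the members by 657 probe sets, of which 650 had a group mean of at least 3 and 7 did not. Just outside that minimum lay probe set 5323830 of Celf1, with group means up to 2.89, and just inside it probe set 4699568 of Tra2b, with 3.10. None of the 650 passed (0 of 191663 probe sets did, 0%). At an unadjusted p under 0.05 there were 8 of 650 (1.23%), against 4.07% of all probe sets. The mean was lower in mutants in 418 of 650 (64.3%), against 53.2% of all, and without mutant 1 in 337 of 649. Groups did not overlap in 26 with mutants lower (4%, against 4.44% of all) and in 12 with mutants higher (1.85%, against 4.01%). Probe sets of a gene share the same arrays and are not separate comparisons.

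Rbm10 held 3 of those 8 probe sets. Of its 25 probe sets 23 were higher in mutants, also without mutant 1. In 5 the groups did not overlap, where 4.01% of all probe sets had all mutants higher. Rbm10 was picked by its small p and its probe sets share the arrays, so these counts are no separate support. Probe set 4903083 read 5.52, 5.23 and 5.49 in controls and 6.23, 6.11 and 6.21 in mutants, and the 3 mutants lay together above all controls. It differed by 0.77 (SE 0.24; adjusted p = 0.994 in limma), and by 0.75 without mutant 1. Probe set 5220198 read 6.77, 6.32 and 6.26 in controls and 7.32, 7.26 and 7.19 in mutants, a difference of 0.81 (SE 0.26). The third, 4847713, read 6.54, 6.29 and 6.44 in controls and 7.60, 6.84 and 7.02 in mutants, a difference of 0.73 (SE 0.28) that was 0.51 without mutant 1. In the first 2 of these probe sets mutant 1 did not stand apart, unlike in the third and in the gene mean. Picking probe sets by small p favours mutants that lie close together, so this is no separate support.

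On the lower side were 5 probe sets. Probe set 4363573 of Srrm1 read 6.18, 6.35 and 6.16 in controls and 5.54, 5.61 and 4.91 in mutants, a difference of -0.88 (SE 0.28) that was -0.97 without mutant 1. Srrm1 also held probe set 4926485, at -0.61 (SE 0.26). Probe set 4915884 of Hnrnpd went from 7.61, 7.55 and 7.46 in controls to 5.72, 7.06 and 6.74 in mutants, and probe set 5451134 of Srsf1 from 7.57, 7.63 and 7.60 to 5.59, 7.19 and 6.88. Both had tight controls and mutant 1 far below, with differences of -1.03 (SE 0.36) and -1.04 (SE 0.41) that were -0.64 and -0.56 without that array. Probe set 4351799 of Srsf10 read 8.96, 9.14 and 8.75 in controls and 8.22, 8.40 and 8.47 in mutants, a difference of -0.59 (SE 0.25). Rbm10 probe set 4806075 and Tra2a probe set 4400079 were the last of the 12 of smallest p, at 0.90 (SE 0.41) and -0.89 (SE 0.41), and their groups overlapped.

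Mbnl1 had 13 of 14 probe sets lower in mutants, with and without mutant 1, where 53.2% of all probe sets were lower over the 6 arrays. The groups did not overlap in 6, where 4.44% of all probe sets had all mutants lower. Mbnl1 was picked by its small p and its probe sets share the arrays, so these counts are no separate support. Its probe set of smallest p, 4357388, read 8.62, 8.89 and 8.80 in controls and 7.66, 8.15 and 8.54 in mutants. Tial1 had 13 of 15 lower, and 14 of 15 without mutant 1, but no probe set whose groups were apart. Srsf5 had all 15 lower, from -0.91 to -0.02, and its probe set 4451731 read 5.27, 6.55 and 6.25 in controls and 5.23, 5.28 and 5.13 in mutants, so that control 1 lay with the mutants. In contrast the 13 probe sets of Ptbp2 ran from -1.19 to 0.70. Mutant 1 was the source of the lowest: in probe set 4986943 it read 3.72, where the other mutants read 6.36 and 6.62 and the controls 6.40 to 7.04.

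**Figure D4:**
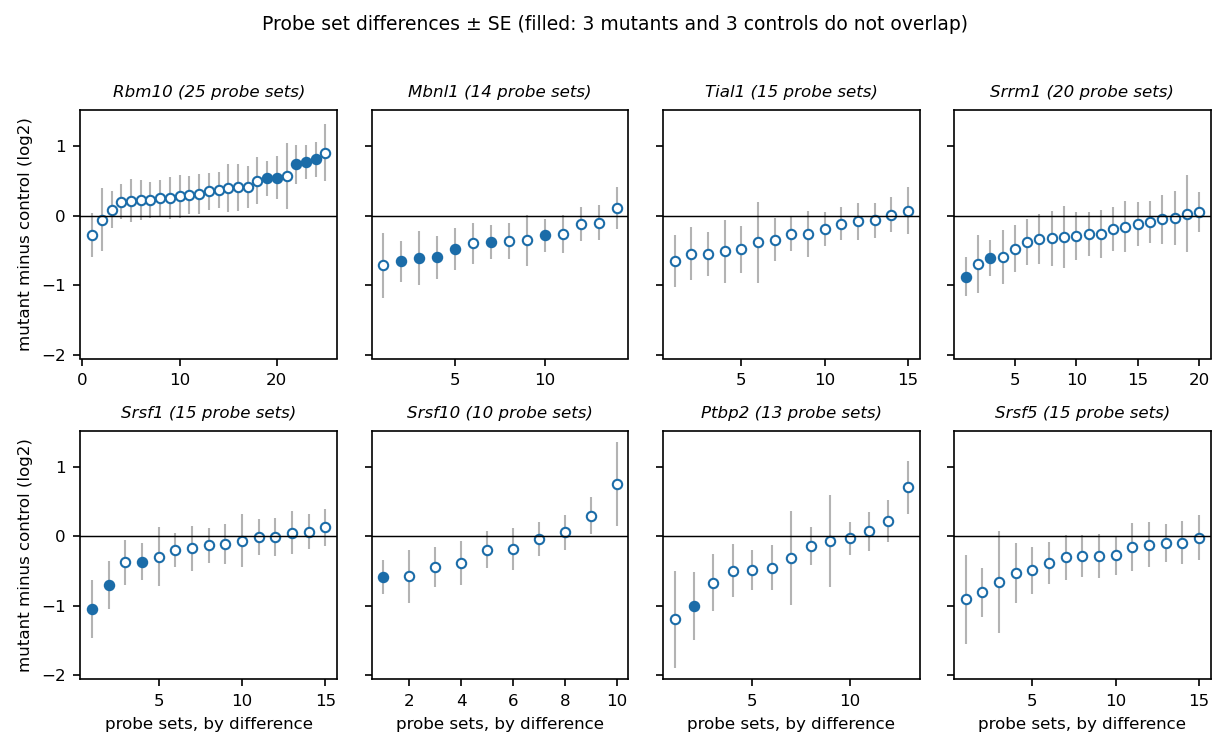
Difference of log2 signal, mutant minus control, with its standard error (y axis), for every kept probe set of 8 members, ordered by difference (x axis); filled points are probe sets whose 3 mutants and 3 controls do not overlap. Rbm10 lies above 0 in 23 of 25, Mbnl1 below 0 in 13 of 14, and Ptbp2 and Srsf10 hold values on both sides.

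Exon usage asks whether single probe sets depart from the difference shared by their gene, and no member passed. Of 41 members 0 passed the diffSplice F-test of limma, where 30 of 14310 genes did (0.21%), and 0 reached an unadjusted p under 0.05, against 4% of all genes. Srsf10, an SR protein that represses splicing when dephosphorylated, had the smallest p of the members (adjusted p = 1). Its most deviating probe set, 4769209, read 2.64, 3.39 and 5.31 in controls and 4.52, 4.34 and 4.73 in mutants, and the controls spanned the mutants. The next were Srsf1, Ptbp2, Rbm25, Srsf6 and Srrm2, also with an adjusted p = 1. In Srsf1 the most deviating probe set was the one with mutant 1 far below. In Ptbp2 it was probe set 5250369, which read 5.13, 5.50 and 5.20 in controls and 6.35, 5.12 and 6.46 in mutants, with mutant 2 among the controls. In Srsf6, probe set 4793655 read 5.90, 5.99 and 6.03 in controls and 6.05, 6.18 and 6.84 in mutants, a narrow gap but for mutant 3. In Rbm25 the most deviating probe set rested on mutant 1 alone, at 5.39, where the other 5 arrays read 2.46 to 3.12. In Srrm2 probe set 5487837 read 6.85, 4.52 and 4.74 in controls and 6.78, 6.80 and 5.75 in mutants, with control 1 among the mutants.

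A second list of 59 splicing regulators, 51 of them measured, was read in the same way. None passed in limma, and 14 were higher and 37 lower (72.5%, against 52.5% of all genes), with a median difference of -0.07. The groups did not overlap in 2, with mutants higher in each (3.92%, against 5.15% of all genes). An unadjusted p under 0.05 in limma was reached by 1 (1.96%, against 4.21% of all genes). The 1 gene was Celf3, a Celf protein of neurons with dim signals here: it read 5.44, 5.53 and 5.27 in controls and 5.72, 5.90 and 5.69 in mutants, with no overlap, and differed by 0.36 (SE 0.15; adjusted p = 0.943 in limma). With a signal minimum of 5 for its probe sets the difference was 0.02, and with medians over probe sets 0.22. The 4 measured neuron markers had sums of 22.1 to 22.9 in controls and 21.5 to 23.4 in mutants, and their part in this value was not tested. Luc7l3, a factor associated with the U1 particle, read 8.99, 9.11 and 8.63 in controls and 8.19, 8.79 and 8.54 in mutants, a difference of -0.40 (SE 0.21) that was -0.25 without mutant 1. Srpk2, a kinase of SR proteins, had mutant 1 at 7.13 and the other 5 arrays at 7.96 to 8.39, a difference of -0.43 (SE 0.28) that was -0.09 without mutant 1. Khsrp, Srsf11 and Tardbp differed by 0.25 (SE 0.18), -0.26 (SE 0.19) and -0.21 (SE 0.16), and by 0.11, -0.09 and -0.12 without mutant 1. For exon usage 0 of the 51 passed the diffSplice F-test. Of the 51, 2 had an unadjusted p under 0.05, Celf3 and Rbfox2, where 4% of all genes did. Tested probe set by probe set in diffSplice, 1 of their 681 probe sets (0.147%) and 0 of the members' 649 passed, where 128 of 172428 did (0.0742%). That was probe set 4955677 of Rbfox2, a result looked up after its values were seen, and it read 4.64, 1.38 and 6.15 in controls and 1.03, 3.06 and 1.24 in mutants. These dim values overlapped between groups and spanned more within the controls than between the group means.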

How the data were processed

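Liver RNA of 3 control and 3 Dhx32 mutant samples was measured on Affymetrix exon arrays. The authors deposited 1 log2 signal per probe set and array, for 204531 probe sets. Per the submitters' processing notes, Affymetrix Expression Console 1.1, RMA, Partek 6.4 and the build mm9 belong to the processing, with no role given for any of them. RMA can shrink the differences of dim signals. Arrays carry no read depth, and their number limits the precision.

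Gene names came from the platform annotation; 185264 probe sets had 1 symbol, 3488 had several and 15779 had none. Old symbols were updated through a RefSeq gene table of GRCm38.p6. Sfrs10, a synonym of 2 genes, was taken as Tra2b, since Srsf2 is present as Sfrs2. Probe sets naming several genes were not used for gene values, and Hnrnpa1 had 1 probe set with a single symbol. Probe sets with a group mean of at least 3 were kept (191663), and each gene with at least 2 of them got their mean.

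Groups were compared with limma 3.58.1 (lmFit, eBayes, diffSplice) in R 4.3.3, mutant minus control, adjusted by Benjamini-Hochberg over all features, at a threshold of 0.05. Exon usage needed at least 3 probe sets. Ratios of pairs were compared by exact permutation. The limma fit on gene values and the diffSplice F-test were tried on simulated data with known shifts, and the other steps were not. The simulated noise was independent between arrays and held no array that stood apart. The members, lists and tests were chosen with earlier results of these data known. Described singly were the 12 members and 12 member probe sets of smallest p, the 6 members of smallest p for exon usage, the members of highest and lowest control mean, paralog pairs, and 6 further regulators. Members named besides these, such as Srsf3, Srsf7 and Hnrnpk, were chosen after their values were seen.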

Additional observations from a re-analysis of the deposited data

How the results depend on the processing

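No member passed at gene level, no member probe set passed and no member passed for exon usage under any alternative run: no signal minimum, a minimum of 5, quantile normalization, median centring, trend and robust moderation, array weights, the replicate block, medians over probe sets, exon usage with each probe set's own variance, and leaving out each array, each where it applied. Over these, the 39 genes and probe sets followed singly had adjusted p-values of at least 0.553 in limma. The number of members with a lower mean was 26 to 31 with all arrays and 21 to 35 with 1 array left out, and their median difference -0.17 to -0.0059 with 1 array left out. Only the absence of mutant 1 brought these to 21 and -0.0059. Over all genes the median difference was 0.02 after quantile normalization and 0.03 after median centring, with 46.3% and 44.2% of all genes lower, and 29 of 41 members were lower under both.

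The direction changed for Clk1 (0.082) and Tia1 (-0.019) with array weights, and for Ptbp2 (0.17) and Celf2 (0.11) with medians over probe sets; the cause was not tested. With 1 array left out Clk1 ran from -0.37 to 0.17, Ptbp2 from -0.52 to 0.055, Celf2 from -0.23 to 0.062, Tia1 from -0.0081 to 0.10 and Tra2b from -0.065 to 0.20. The signal minimum was applied again in each of these runs, so probe sets near it could enter. Probe set 4316241 of Celf2 entered without mutant 3, the run with -0.23, and probe set 5323830 of Celf1 without mutant 2. Celf3, of the further list, had a difference of 0.36 that was 0.02 with the minimum of 5. Dhx32 passed with quantile normalization (-1.88, adjusted p = 0.0411), median centring (-1.87, adjusted p = 0.0339) and array weights (-1.98, adjusted p = 0.0273 in limma). Of all genes 1 passed, against 0 with no signal minimum, 2 with quantile normalization, 2 with median centring, 2 with array weights, 0 with the replicate block and 0 to 3 with 1 array left out. Of all probe sets 0 passed, against 2 with the minimum of 5, 9 with trend and robust moderation, 3 with array weights and 0 to 5 with 1 array left out. For exon usage 30 genes passed, against 18 with the replicate block, 0 with own variances (589 at an unadjusted p under 0.05) and 13 to 58 with 1 array left out.

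Whether the sample numbers pair the groups cannot be settled from 3 arrays per group. Deviations of same-numbered samples from their group means correlated by 0.0981, -0.108 and 0.176, and those of differently numbered samples by -0.296 to 0.213. The replicate block called no member, like every other run. It had 893 genes at an unadjusted p under 0.05 in limma, against 633 without the block. With 3 arrays per group, the members' median standard error was 0.18.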
